A study of Mus musculus with 36 samples.

Results

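The 41 collagen chain genes described here are every gene in the deposited tables whose symbol is Col, a type number, the letter a and a chain number, out of 20325 genes listed. By protein class, 11 encode fibrillar chains, 6 encode the basement membrane chains of type IV, and 24 encode other chains: 9 fibril-associated chains (FACIT), 4 beaded filament chains of type VI, 3 multiplexin or anchoring fibril chains, 3 short-chain network chains, 4 transmembrane chains and Col28a1. Col6a3, Col6a5, Col21a1 and Col26a1 are not among the genes listed, so they have no values here. The study followed mouse embryonic fibroblasts (MEFs) during reprogramming towards pluripotency, in the absence or presence of SGC0946, which inhibits the histone H3 lysine methyltransferase DOT1L, and sequenced polyadenylated RNA in 36 libraries, 2 for each of 18 groups. The E13.5 MEFs were homozygous for a cassette of Oct4, Klf4, Sox2 and c-Myc inserted at the Col1a1 locus and heterozygous for the reverse tetracycline transactivator at Rosa26, so that doxycycline switched the factors on. All MEF-derived groups shared this genotype, and one member, Col1a1, is the gene into whose locus the cassette was placed. The effect of the insertion on its counts was not tested.

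The timecourse had 7 groups: MEFs without treatment, doxycycline for 2 days with the solvent DMSO or with SGC0946, and doxycycline for 4 days with DMSO throughout, with SGC0946 on days 0 to 2 (early), on days 2 to 4 (mid) or on days 0 to 4 (full). In the sort experiment, cells given doxycycline for 3.5 days were separated by flow cytometry into CDH1- and CDH1+ cells, CDH1 being the epithelial adhesion protein E-cadherin, and kept to day 5.5 in doxycycline with DMSO or SGC0946, which gave 4 groups. In the lentivirus experiment, MEFs carrying an empty or a Cdh1 lentivirus were taken uninduced or after 2 days of doxycycline with DMSO or SGC0946, which gave 6 groups. V6.5 embryonic stem cells (ESCs), freed of feeders 24 hours before harvest, formed the last group, with no genotype label. Irradiated MEFs served as a feeder layer for the ESCs and the cells in reprogramming, and feeder MEFs are themselves fibroblasts. How much feeder RNA, if any, remained in a library was not measured, and the counts cannot separate it. No label states that paired libraries derive from separate cultures, so all p-values measure the spread between these libraries, which may be technical.

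Collagens are secreted proteins built as triple helices of 3 chains, either 3 copies of 1 chain or different chains together. Fibrillar collagens (types I, II, III, V, XI, XXIV and XXVII) assemble into the cross-striated fibrils of connective tissue, type IV forms the sheet-like network under epithelia and around vessels, and the other classes coat fibrils, anchor them, or span the cell membrane. Fibroblasts are the main producers of type I collagen, and a loss of fibroblast matrix genes is a known early step when fibroblasts are reprogrammed. DOT1L methylates lysine 79 of histone H3 along transcribed genes.

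The libraries held between 18.5 and 50.9 M expected counts. Of the members, 40 passed the low-count filter in the timecourse, where Col13a1 did not, 38 in the sort, where Col13a1, Col9a1 and Col9a2 did not, and 41 in the lentivirus and ESC set. A level is given below in CPM (expected counts scaled to the library total after TMM normalization) for each library, in replicate order. A change is given as edgeR's quasi-likelihood log2 fold change with its standard error (SE), and a call means that p, adjusted by Benjamini-Hochberg over all genes tested, lay under 0.05. Levels of different genes are compared in TPM, which is scaled to gene length. Fibroblast markers ran from 19290 to 19600 CPM in sum in the 2 MEF libraries and from 903 to 1033 CPM in the 2 ESC libraries, where summed pluripotency markers reached 4313 to 4468 CPM against 3.90 to 4.68 CPM in MEFs.

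In MEFs the members together took 3.35% and 3.39% of all counts, and after 2 days of factor induction 1.07% and 1.10%. At day 4 the share was 1.38% and 1.39% in the controls and 1.57% and 1.54% with the inhibitor throughout. In ESCs it was 0.0727% and 0.0762%. Summed TPM of the fibrillar members was 9127 ± 290 (SD, n = 2) in MEFs, 2719 ± 56.8 at day 2 and 3072 ± 20.4 at day 4, so that it was 3.36-fold lower at day 2 and 2.97-fold lower at day 4. For type IV the same sums were 1072 ± 34.5, 468 ± 5.39 and 816 ± 10.0 TPM, a difference of 2.29-fold at day 2 and of 1.32-fold at day 4. In bulk libraries, fewer cells of a type and less RNA per cell cannot be told apart.

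**Figure D1:**
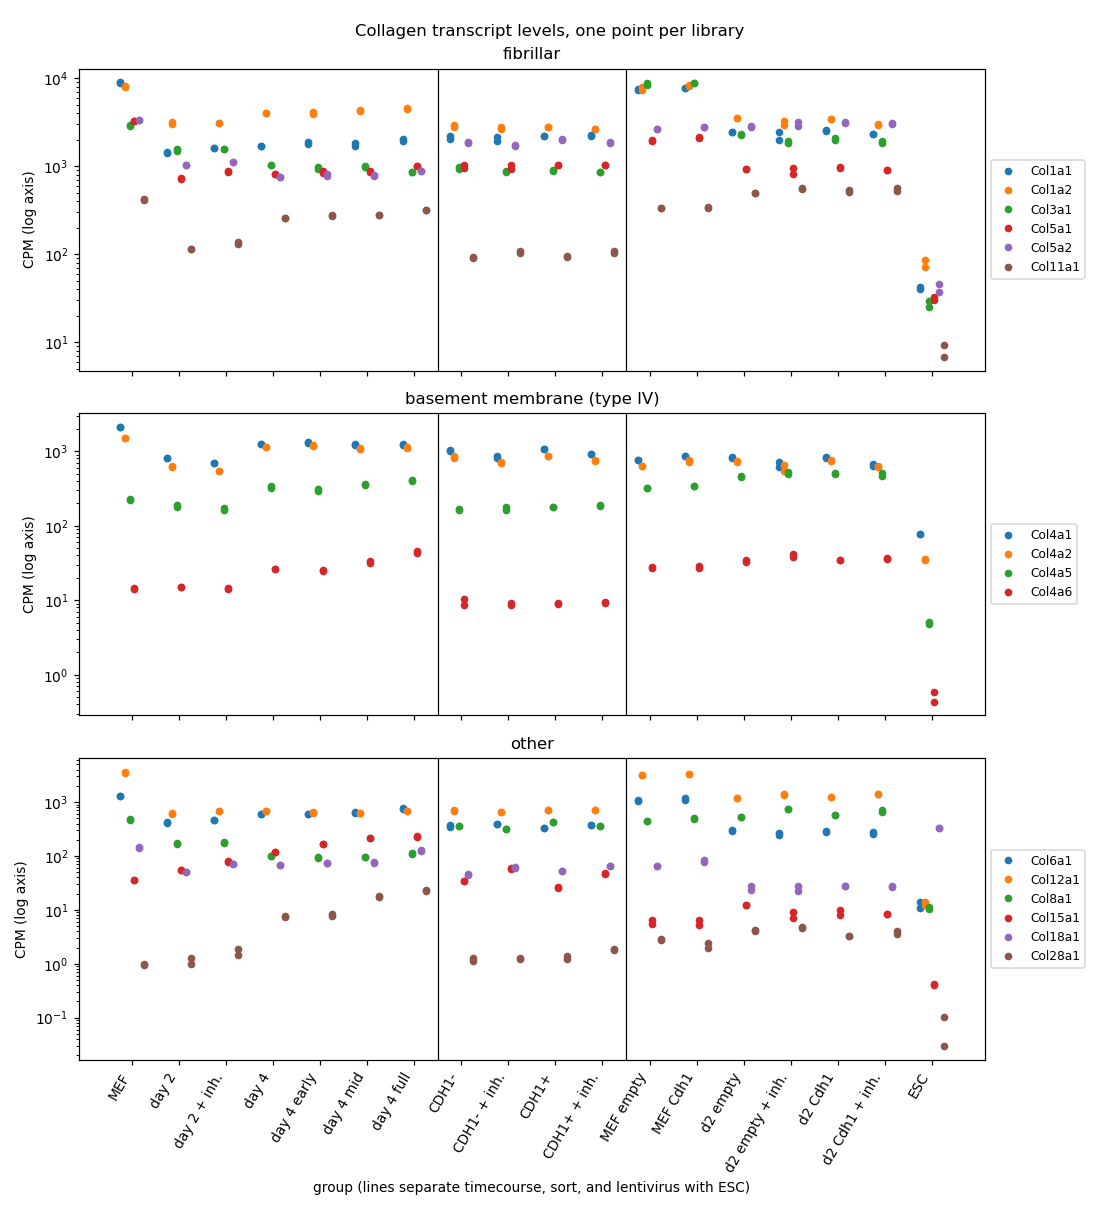
Level of 16 collagen genes in every library, in CPM on a logarithmic axis, one point per library and 2 libraries per group; vertical lines separate the timecourse, the sort, and the lentivirus libraries with ESCs, which were scaled separately, so heights are compared within an experiment. In the timecourse all 6 fibrillar genes shown stood higher in the 2 MEF libraries than in any later library, Col15a1 and Col28a1 stood lowest in MEFs or at day 2, and in ESCs Col18a1 stood above the other 15.

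The first comparison asked how collagen transcripts changed once the factors were on. At day 2, 33 of the 40 members tested were called against MEFs, 3 higher and 30 lower, where 74.4% of all 14473 genes tested were called (40.4% higher, 34.0% lower). The median log2 change was -1.58 over the members and 0.06 over all genes. At day 4, again 33 of 40 were called, 7 higher and 26 lower, beside 82.2% of all genes (41.2% higher, 41.0% lower). From day 2 to day 4, 31 of 40 were called, 24 higher and 7 lower, beside 77.8% of all genes (38.1% higher, 39.7% lower). The comparisons share libraries with each other.

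All 11 fibrillar genes fell at day 2. Col1a1, the major chain of the type I trimer, stood at 8767 and 8956 CPM in MEFs and at 1403 and 1451 CPM at day 2. Col1a2, its partner chain, stood at 8046 and 7956 CPM in MEFs and at 3039 and 3154 CPM at day 2. The groups do not overlap for either gene, and Col1a1 fell by 2.63 (SE 0.037, edgeR adjusted p = 2.36e-39) while Col1a2 fell by 1.37 (SE 0.032, edgeR adjusted p = 1.33e-32) on the log2 scale. Col3a1, the homotrimeric fibrillar chain of stretchy tissues, was at 2894 and 2949 CPM in MEFs and at 1492 and 1556 CPM at day 2. At 0.94 (SE 0.032) its log2 fall at day 2 was the smallest of the fibrillar genes, and by day 4 both control libraries were lower again, at 1026 and 1025 CPM. Col5a2, a type V chain, went from 3344 and 3343 to 1039 and 1041 and then 748 and 753 CPM, lower at each step. Between day 2 and day 4 the members of the class went both ways. Col11a1, a chain of the type XI fibril core, rose from 116 and 113 to 254 and 254 CPM (log2 change 1.15, SE 0.033), and Col1a2, Col1a1, Col5a1, Col11a2 and Col24a1 were also called higher. Col3a1, Col5a2, Col5a3 and Col27a1 were called lower. The largest of these falls was that of Col3a1, by 0.57 (SE 0.032). The smallest was that of Col27a1, by 0.21 (SE 0.072), a call that did not hold without day 2 control replicate 2 (edgeR adjusted p = 0.0645) or day 4 control replicate 1 (edgeR adjusted p = 0.13).

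The proportion of the partner chains moved with this. The TPM ratio of Col1a1 to Col1a2 was 1.19 and 1.23 in MEFs, 0.506 and 0.504 at day 2 and 0.457 and 0.460 at day 4. In the lentivirus experiment it was 1.07 and 1.05 in empty-virus MEFs and 0.753 and 0.759 after 2 days, and in the sort it lay between 0.795 and 0.939 in all 8 libraries. The ratio fell after induction in both experiments, with no overlap of libraries, and no test of the ratio was run. The Col5a1 to Col5a2 ratio of the type V chains, which nucleate type I fibrils, went from a mean of 0.762 in MEFs to 0.549 at day 2 and 0.859 at day 4. The Col4a1 to Col4a2 ratio moved less in proportion at each of these steps, from a mean of 1.38 in MEFs to 1.28 at day 2 and 1.07 at day 4. From MEFs to day 4 as a whole it moved more in proportion than the Col5a1 to Col5a2 ratio. The cassette at the Col1a1 locus is shared by all MEF-derived groups, and whether it bears on this ratio was not tested.

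**Figure D2:**
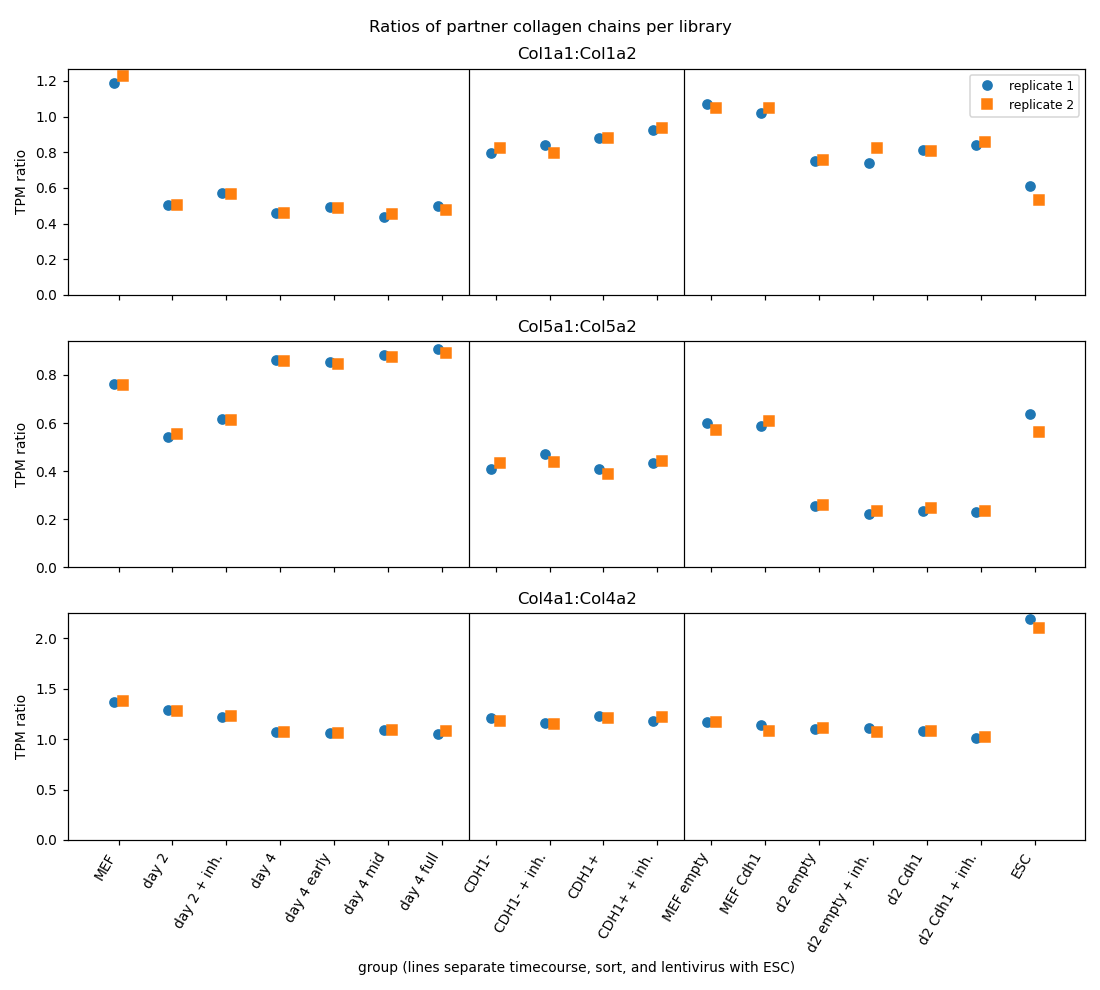
Ratio of TPM values of partner collagen chains in each library (circle, replicate 1; square, replicate 2) by group, on linear axes from 0, with vertical lines between the 3 experiments. The Col1a1 to Col1a2 ratio lies at 1.19 and 1.23 in timecourse MEFs and at or under 0.57 in the other timecourse libraries, while the Col4a1 to Col4a2 ratio stays between 1.05 and 1.38 there and is highest in ESCs, at 2.19 and 2.10.

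The remaining fibrillar genes lay far lower. Col2a1, the cartilage fibril chain, was at 111 and 109 CPM in MEFs, 13.8 and 14.4 CPM at day 2 and 13.4 and 14.1 CPM at day 4. Col5a3, a minor type V chain, was at 271 and 263, 35.0 and 37.2 and 27.7 and 24.9 CPM in the same order. Both stayed low at day 4, with log2 changes from MEFs of -3.005 (SE 0.055) and -3.34 (SE 0.05). Col24a1, a minor fibrillar chain, dipped from 9.63 and 9.91 CPM to 1.32 and 1.06 CPM and stood at 3.62 and 3.17 CPM at day 4. Col11a2, the second type XI chain, was at 3.24 and 3.37, 0.796 and 1.06 and 3.24 and 3.03 CPM, the one fibrillar gene not called against MEFs at day 4. The log2 changes of Col24a1 were -3.04 (SE 0.15) from MEFs to day 2 and 1.52 (SE 0.17) from day 2 to day 4.

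Within type IV, Col4a1 and Col4a2 stayed below MEFs at day 4, and Col4a5 and Col4a6 stood above them. Col4a1 and Col4a2 encode the ubiquitous type IV network, are divergently transcribed from one shared promoter region, and form a trimer together. Col4a5 and Col4a6, a second head-to-head pair on the X chromosome, contribute to the networks of kidney, skin and smooth muscle, and Col4a3 and Col4a4 to that of the glomerulus. The start regions of both pairs as RefSeq gives them (GRCm38.p6, 250 bases before to 50 after a gene's start, each printed 5′ to 3′ on the strand of its gene) are shown because these 2 pairs carry the type IV results below. Capitals mark CCAAT and GGGCGG, searched on both strands, so ATTGG and CCGCCC are the reverse forms, and TATAAA was found in none of the 4. Col4a1 lies at chr8:11312777-11313076 on the minus strand and Col4a2 at chr8:11312555-11312854 on the plus strand, and their windows share 78 bases, which are therefore read on opposite strands. Col4a6 lies at chrX:141474027-141474326 on the minus strand and Col4a5 at chrX:141475169-141475468 on the plus strand, with 842 bases between the windows.
Col4a1: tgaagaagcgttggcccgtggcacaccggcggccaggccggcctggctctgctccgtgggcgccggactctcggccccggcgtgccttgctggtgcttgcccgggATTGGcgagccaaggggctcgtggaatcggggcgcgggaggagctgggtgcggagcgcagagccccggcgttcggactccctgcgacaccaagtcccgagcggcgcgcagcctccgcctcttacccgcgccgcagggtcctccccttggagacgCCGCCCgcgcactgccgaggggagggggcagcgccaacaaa
Col4a2: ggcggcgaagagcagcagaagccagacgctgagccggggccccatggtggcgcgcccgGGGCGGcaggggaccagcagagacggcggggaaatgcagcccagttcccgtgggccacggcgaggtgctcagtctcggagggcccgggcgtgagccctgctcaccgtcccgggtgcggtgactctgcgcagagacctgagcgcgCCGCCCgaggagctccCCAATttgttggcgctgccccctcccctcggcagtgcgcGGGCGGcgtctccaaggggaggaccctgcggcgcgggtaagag
Col4a5: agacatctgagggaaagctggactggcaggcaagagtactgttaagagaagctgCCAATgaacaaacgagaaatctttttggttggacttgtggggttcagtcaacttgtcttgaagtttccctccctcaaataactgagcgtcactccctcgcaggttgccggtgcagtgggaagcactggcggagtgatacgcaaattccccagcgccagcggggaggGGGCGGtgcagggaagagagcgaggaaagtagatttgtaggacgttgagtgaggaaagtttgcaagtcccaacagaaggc
Col4a6: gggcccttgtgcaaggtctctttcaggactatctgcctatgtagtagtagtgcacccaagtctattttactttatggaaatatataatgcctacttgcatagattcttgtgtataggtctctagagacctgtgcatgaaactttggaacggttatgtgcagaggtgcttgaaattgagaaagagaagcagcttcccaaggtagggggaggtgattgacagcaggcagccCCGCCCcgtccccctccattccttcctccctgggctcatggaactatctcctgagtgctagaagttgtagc
GGGCGG or its reverse was in 61.1% of the 36 windows found for 33 of the members and in 35.7% of 32851 windows of the whole table, CCAAT in 36.1% and 37.4%, and TATAAA in 13.9% and 13.6%. The members' windows had a median GC content of 59.9%, and all windows one of 52.7%. These counts describe letters and say nothing about a factor bound there.

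Col4a1 stood at 2102 and 2120 CPM in MEFs, 813 and 822 CPM at day 2 and 1248 and 1261 CPM at day 4. Col4a2 stood at 1487 and 1488, 612 and 625 and 1130 and 1139 CPM. Both fell at day 2, by 1.37 (SE 0.031) and 1.26 (SE 0.032) on the log2 scale, and both rose again to day 4, by 0.62 (SE 0.031) and 0.87 (SE 0.032), without reaching the MEF level. Col4a5 was at 220 and 227 CPM in MEFs, 178 and 187 CPM at day 2 and 324 and 338 CPM at day 4. Like Col4a1 and Col4a2, it was called lower at day 2 and rose to day 4. Col4a6 was at 14.8 and 14.2, 15.2 and 14.9 and 26.1 and 26.5 CPM. At day 4 both were above MEFs, with no overlap, by 0.57 (SE 0.035, edgeR adjusted p = 3.15e-18) and 0.86 (SE 0.064, edgeR adjusted p = 1.15e-15). Col4a3 and Col4a4 stayed at or under 0.836 CPM in all 14 timecourse libraries. Of the 13 listed partners of type IV in basement membranes (laminins, nidogens, perlecan and others), 3 were called higher and 9 lower at day 2, and 8 higher and 5 lower at day 4. Over all genes 40.4% were called higher and 34.0% lower at day 2, and 41.2% and 41.0% at day 4.

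Among the other classes, the interstitial chains fell and a few scarce chains rose. Col12a1, a FACIT that coats type I fibrils, went from 3493 and 3694 CPM to 622 and 604 CPM at day 2 and 680 and 685 CPM at day 4, a log2 change at day 2 of -2.55 (SE 0.033). Col6a1, a chain of the beaded microfibril, went from 1292 and 1275 CPM to 420 and 416 CPM and then to 591 and 591 CPM, and Col6a2, its partner, went from 779 and 759 to 187 and 192 and then 274 and 278 CPM, with log2 changes of -2.02 and 0.54 in the 2 steps. Col7a1, the anchoring fibril chain that ties epidermal basement membrane to dermis, went from 174 and 163 CPM in MEFs to 4.78 and 6.02 CPM at day 2. Its log2 change of -4.96 (SE 0.069, edgeR adjusted p = 2.65e-40) was the largest fall among members above 1 CPM in both groups. Col8a1, a short-chain network collagen of vessel walls and the eye, was at 463 and 493, 165 and 174 and 102 and 99.2 CPM, so that each step was lower than the one before. Its partner Col8a2 was at 7.20 and 5.98, 1.02 and 0.694 and 3.93 and 4.01 CPM, low at day 2 and between the other groups at day 4. The FACIT genes Col16a1, at 272 and 266, 62.2 and 67.7 and 66.8 and 69.2 CPM, and Col14a1, at 14.1 and 13.9, 3.56 and 3.47 and 2.09 and 1.61 CPM, stayed far below MEFs at both days. Col8a2, Col16a1, Col14a1, Col10a1, Col18a1, Col19a1 and Col25a1 were called lower at both days. Of the transmembrane chains, Col23a1 was at 2.38 and 2.24 CPM in MEFs and 1.92 and 1.94 CPM at day 2 and was not called, and Col25a1 went from 1.77 and 1.10 to 0.174 and 0.394 CPM.

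Col15a1, a multiplexin that lies between basement membranes and the underlying matrix, rose in each step, from 36.2 and 36.2 CPM in MEFs to 55.3 and 56.0 CPM at day 2 and 119 and 120 CPM at day 4. The libraries of the 3 groups do not overlap, and its log2 change at day 4 was 1.72 (SE 0.04, edgeR adjusted p = 3.80e-33). Col28a1, a chain described in peripheral nerve, was at 0.988 and 0.935, 0.970 and 1.30 and 7.74 and 7.39 CPM and rose at day 4 by 2.97 (SE 0.15). Col20a1, a little-studied FACIT, went from 0.203 and 0.695 CPM to 9.38 and 9.89 CPM at day 4 (log2 change 4.43, SE 0.19), and Col6a6, a type VI chain, from 0.380 and 0.454 to 1.88 and 2.59 CPM. Col9a1 and Col9a2, chains of the cartilage FACIT type IX, were nearly lost at day 2. Col9a2 read 1.39 and 1.31 CPM in MEFs, 0.0498 and 0.116 CPM at day 2 and 1.49 and 1.94 CPM at day 4, and Col9a1 read 2.33 and 1.95, 0.0249 and 0.0232 and 0.216 and 0.233 CPM. Both were called lower at day 2 and higher from day 2 to day 4, and with so few reads at day 2 no fold is given.

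Of the members not yet placed, Col4a4 was called higher at both days, Col9a3 lower at both, Col22a1 lower at day 2, and Col6a4, Col17a1, Col23a1 and Col4a3 were called at neither day. The call of Col22a1 was lost without each of the 4 libraries in turn (edgeR adjusted p from 0.103 to 0.112), that of Col9a3 at day 2 without MEF replicate 2 (0.199) or day 2 control replicate 2 (0.211), and that of Col20a1 at day 2 without MEF replicate 1 (0.178). Col25a1 at day 4 was lost without MEF replicate 1 (0.0812). Levels of another cell kind moved in the same comparison: summed skeletal muscle markers were 80.4 to 81.0 CPM in MEFs and 9.98 to 10.7 CPM at day 2, and summed macrophage markers 204 to 206 and 27.4 to 29.7 CPM. Cartilage markers summed to 41.9 to 43.0 CPM in MEFs and 14.7 to 15.2 CPM at day 2, where 1 of 9 was called higher and 5 lower, among them Acan (log2 change -3.91), Sox9 (-2.84) and Matn3 (-2.16). Of the other marker lists at day 2, 6 endothelial genes tested gave 1 higher (Tek) and 3 lower, 4 osteoblast genes 1 higher and 2 lower, 4 Schwann and neural crest genes 3 lower, 4 extraembryonic endoderm genes 1 higher (Lama1) and 2 lower, and 5 epithelial genes 2 higher (Cdh1 and Cldn3) and 2 lower. The part of these lists in the result was not tested.

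Most of the listed genes that make collagen fit for secretion were also lower than in MEFs. Beside 34.0% of all genes called lower at day 2 and 41.0% at day 4, of 17 prolyl and lysyl hydroxylases and chaperones listed, 15 were called lower and 1 higher at day 2, and 16 lower and 1 higher at day 4. From day 2 to day 4, 4 were called higher and 9 lower, and their sum went from 4050 to 4097 CPM at day 2 to 3678 to 3683 CPM at day 4, while 24 of the collagen genes rose over that step and 7 fell. Of 11 genes of procollagen secretion and propeptide removal tested, 7 were lower and 1 higher at day 2, of 9 collagen receptors 8 were lower, and of 12 genes of collagen degradation 10 were lower and 1 higher. Among them, Serpinh1, the collagen chaperone HSP47, had a log2 change of -1.25 at day 2, P4hb and P4ha1, subunits of prolyl 4-hydroxylase, -0.97 and -1.09, and Sec24d, a coat protein of the vesicles that carry procollagen, -1.59. Tll1 and Bmp1, which remove the C-propeptide, stood at -1.77 and -1.17. The receptors Mrc2, Itgb1 and Itga11 stood at -1.42, -0.94 and -1.07, and Mmp14, Timp2 and Ctsk of collagen degradation at -1.35, -0.97 and -1.75, all called. Of the type IV partners, Lama1, a laminin chain of early embryonic basement membrane, rose by 5.08 while Sparc and Nid1 fell by 1.66 and 1.08. All 11 fibroblast markers were called lower at both days, among them Pdgfrb, Pdgfra and S100a4. The lists' median log2 changes at day 2 were -0.97 for hydroxylases and chaperones, -1.07 for receptors and -1.69 for fibroblast markers, beside 0.06 over all genes.

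**Figure D3:**
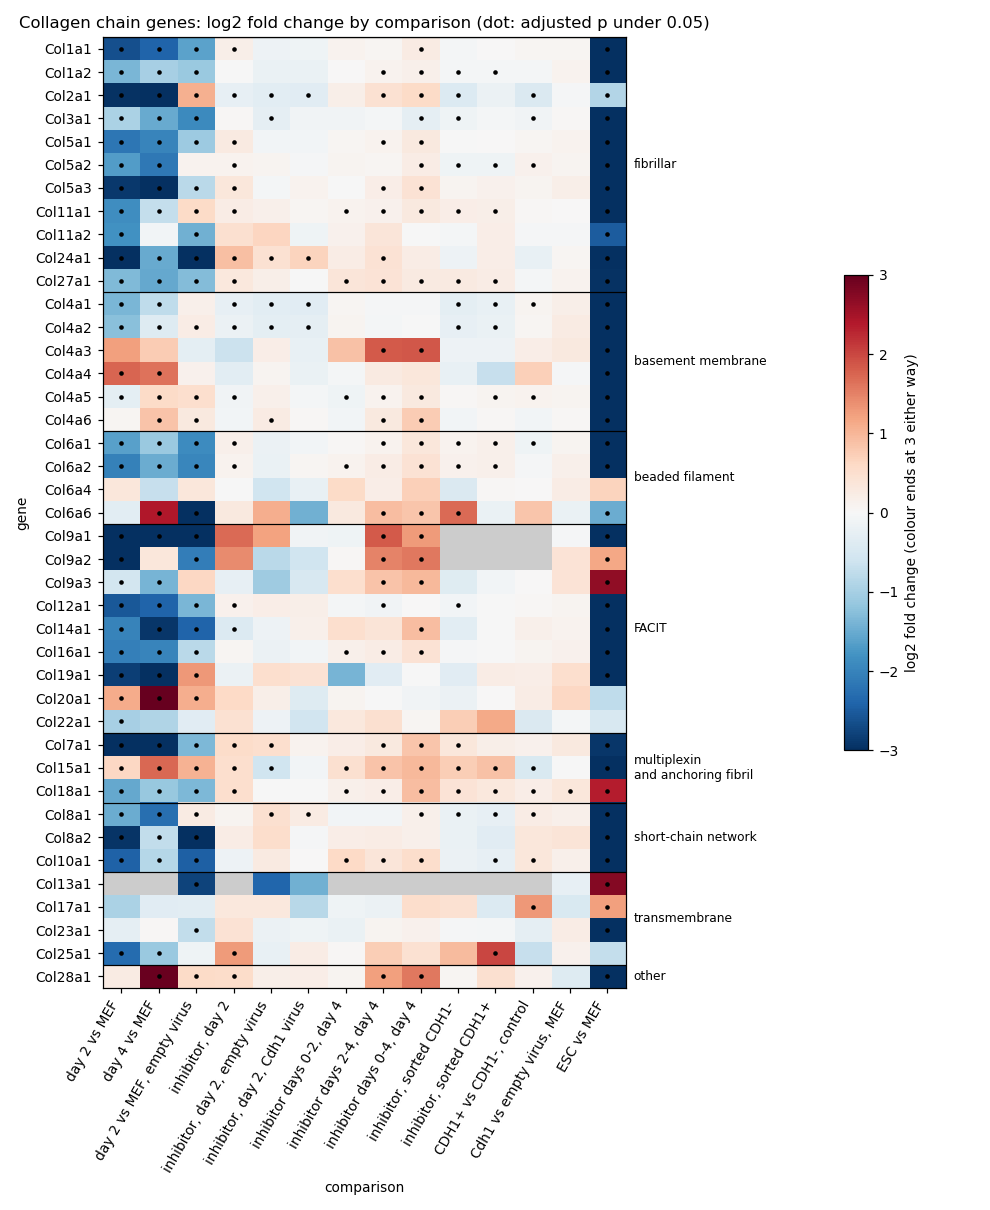
Log2 fold change of each of the 41 members (rows, by class) in 14 comparisons (columns); red is higher and blue lower in the first-named condition, colours end at 3 either way, grey marks members that were not tested, and a dot marks an adjusted p under 0.05. The first columns are blue for most members in the step from MEFs to day 2, whereas the inhibitor columns are pale, with Col4a1 and Col4a2 blue at day 2 and in the sort, and Col15a1 red in 6 of the 8 inhibitor columns.

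The second question was what DOT1L inhibition did to these genes. At day 2 of the timecourse 20 of 40 members were called with the inhibitor, 15 higher and 5 lower, where 17.8% of all genes were called (8.73% higher, 9.11% lower). Of the fibrillar genes 7 were higher and 1 lower, of type IV none was higher and 3 were lower, and of the other classes 8 were higher and 1 lower. The median log2 change was 0.16 over the members and -0.0046 over all genes. Of the 20 called changes, 18 were under 1.5-fold. In the same comparison, summed pluripotency markers were 366 to 368 CPM in controls and 307 to 311 CPM with the inhibitor. Pou5f1 (the gene of Oct4) and Sox2, both factors of the cassette, were called lower, with log2 changes of -0.26 (edgeR adjusted p = 5.26e-07) and -0.24 (1.71e-05). Nanog, a marker of the same list outside the cassette, was called higher (1.285, edgeR adjusted p = 0.011). The part of these markers in the result was not tested.

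Col15a1 rose from 55.3 and 56.0 to 80.3 and 78.2 CPM and Col18a1, the multiplexin whose end fragment is endostatin, from 49.99 and 50.63 to 71.8 and 70.4 CPM. Neither pair of libraries overlaps, and the log2 changes were 0.51 (SE 0.038, edgeR adjusted p = 6.41e-13) and 0.50 (SE 0.041, edgeR adjusted p = 5.53e-12). Among fibrillar genes Col5a1 stood at 717 and 737 CPM in controls and 867 and 871 CPM with the inhibitor, and Col1a1 at 1403 and 1451 and 1589 and 1616 CPM. Col24a1 had the largest fibrillar change, from 1.32 and 1.06 to 1.94 and 2.48 CPM (log2 change 0.90, SE 0.18). Col11a1, Col5a3, Col27a1, Col7a1, Col6a1, Col12a1, Col5a2, Col6a2, Col25a1 and Col28a1 were also called higher. In the opposite direction, Col4a1 fell from 813 and 822 to 686 and 693 CPM, Col4a2 from 612 and 625 to 547 and 548 CPM and Col2a1 from 13.8 and 14.4 to 11.6 and 12.0 CPM. Col4a5 and Col14a1 were the remaining members called lower. In calls that held without each library in turn, 12 of the 20 remained, and the others were those of Col12a1, Col14a1, Col25a1, Col28a1, Col2a1, Col4a5, Col5a2 and Col6a2. For Col2a1 the call went without day 2 control replicate 2 (edgeR adjusted p = 0.065) or inhibitor replicate 1 (0.0539).

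The lower Col4a1 and Col4a2 recurred in the sort and lentivirus experiments, both treated for 2 days. With the 2-day mid window of the timecourse, given last, neither gene was called. With the empty virus, Col4a1 stood at 846 and 818 CPM in controls and 611 and 721 CPM with the inhibitor. With the Cdh1 virus it stood at 823 and 842 and 640 and 669 CPM. In CDH1- cells it stood at 996 and 1040 and 855 and 819 CPM, and in CDH1+ cells at 1079 and 1076 and 917 and 921 CPM. In none of the 4 do the control and inhibitor libraries overlap, and the log2 changes were -0.32 (SE 0.067), -0.35 (SE 0.067), -0.28 (SE 0.025) and -0.23 (SE 0.024), beside -0.25 (SE 0.031) at day 2 of the timecourse. Those of Col4a2 were -0.30, -0.26, -0.23 and -0.20, beside -0.18, all called. In the lentivirus experiment these calls rested on single libraries. That of Col4a1 with the empty virus went without control replicate 1 (edgeR adjusted p = 0.0754) or inhibitor replicate 1 (0.166), and with the Cdh1 virus without control replicate 2 (0.0714). That of Col4a2 went without 3 of the 4 empty-virus libraries, all but inhibitor replicate 2 (from 0.0516 to 0.319), and without each of the 4 Cdh1-virus libraries (from 0.0885 to 0.259). In the timecourse and the sort, the calls of both genes held without each library. Summed epithelial markers were higher with the inhibitor, without overlap, in 3 of the 5 comparisons with both genes called lower. They went from 6.90 to 7.19 CPM in controls to 17.1 to 17.2 CPM at day 2 of the timecourse, from 46.4 to 48.9 to 81.7 to 82.3 CPM in CDH1- cells and from 138 to 140 to 189 to 190 CPM in CDH1+ cells. With the viruses the sums were 12.7 to 12.9 and 12.5 to 16.0 CPM with the empty virus and 126 to 129 and 120 to 122 CPM with the Cdh1 virus. These sums include Cdh1, the gene that the Cdh1 virus carries. In the timecourse all 5 epithelial genes tested were called higher, with Cdh1 at a log2 change of 1.29, Krt8 at 1.26 and Krt18 at 1.38. The part of these markers in the result was not tested. Of the pathway genes, P4ha2 (0.40), Leprel2 (0.17), P4ha1 (0.14), Sec24d (0.19), Timp3 (0.28), Timp1 (0.26) and Itga11 (0.13) were called higher and Mmp14 (-0.27) lower at day 2. Among partners of type IV in basement membranes, Sparc (0.26) was called higher and Lama4 (-0.21) and Nid2 (-0.19) lower at day 2. These partners were called 4 higher and 6 lower of 13 at day 2, beside 8.73% of all genes higher and 9.11% lower. In CDH1- cells 2 of 13 were higher and 8 lower, beside 7.82% and 10.8%. With the mid window at day 4, also 2 days up to harvest, Col4a1 stood at 1205 and 1237 CPM and at 1248 and 1261 CPM in controls. Col4a2 stood at 1074 and 1107 CPM and at 1130 and 1139 CPM in controls, and neither was called.

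**Figure D4:**
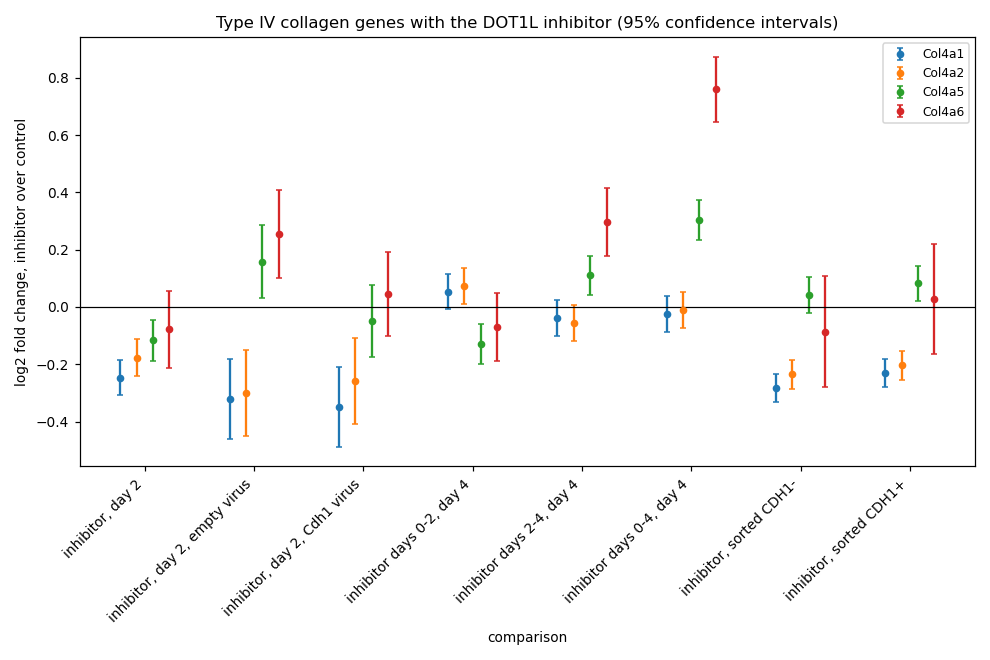
Log2 fold change of 4 type IV genes with SGC0946 over the matched control in 8 comparisons; points are edgeR estimates and bars 95% confidence intervals, and the day 4 comparisons share their control libraries. Col4a1 and Col4a2 lie below 0 in the 3 day 2 comparisons and in both sorted populations and within 0.08 of it at day 4, where Col4a6 reaches 0.76 with the inhibitor on days 0-4.

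At day 4 with the inhibitor throughout, 26 of 40 members were called, 25 higher and 1 lower, where 34.8% of all genes were called (19.0% higher, 15.8% lower). Fibrillar genes were 8 higher and 1 lower of 11, type IV 3 higher of 6, and the other classes 14 higher of 23. The median log2 change was 0.34 over the members and -0.0046 over all genes. The summed TPM of the fibrillar members was 1.12-fold and that of the other classes 1.33-fold that of the control.

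Col18a1 rose from 66.7 and 66.6 to 130 and 125 CPM, a log2 change of 0.93 (SE 0.038, edgeR adjusted p = 1.79e-22). Col15a1 rose from 119 and 120 to 238 and 228 CPM, a log2 change of 0.96 (SE 0.034, edgeR adjusted p = 1.33e-24). Col7a1, the remaining gene of their class, rose from 7.42 and 7.49 to 13.5 and 13.2 CPM, so that all 3 multiplexin and anchoring fibril genes were higher, without overlap. Col28a1 rose from 7.74 and 7.39 to 23.8 and 21.9 CPM, a log2 change of 1.59 (SE 0.087). Col9a2 rose from 1.49 and 1.94 to 5.20 and 5.08 CPM, and Col9a3 from 0.733 and 0.700 to 1.44 and 1.37 CPM. Within type IV, Col4a6 rose from 26.1 and 26.5 to 43.4 and 45.7 CPM (log2 change 0.76, SE 0.056, edgeR adjusted p = 2.24e-14) and Col4a5 from 324 and 338 to 402 and 414 CPM (0.30, SE 0.034). Col4a1 at 1247 and 1220 CPM and Col4a2 at 1154 and 1100 CPM were not called (log2 differences -0.02 and -0.01, 95% intervals from -0.09 to 0.04 and from -0.07 to 0.05).

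Fibrillar increases were smaller. Col2a1 rose from 13.4 and 14.1 to 20.6 and 20.1 CPM (0.57, SE 0.061), Col1a1 from 1679 and 1697 to 2052 and 1928 CPM (0.24, SE 0.035) and Col5a1 from 820 and 822 to 1012 and 992 CPM (0.29, SE 0.031). Col3a1 was the one member called lower, from 1026 and 1025 to 850 and 854 CPM (-0.27, SE 0.032, edgeR adjusted p = 5.86e-09). Col6a1, Col6a2, Col6a6, Col11a1, Col16a1, Col5a3, Col5a2, Col10a1, Col14a1, Col1a2, Col27a1, Col8a1, Col4a3 and Col9a1 were also called higher. The calls of Col27a1, Col8a1 and Col9a1 did not hold without every library: Col27a1 went without control replicate 1 (edgeR adjusted p = 0.0719) or inhibitor replicate 1 (0.185), Col8a1 without control replicate 2 (0.0861) or inhibitor replicate 2 (0.0861), and Col9a1 without each of the 4 (from 0.0541 to 0.0898). Of the hydroxylases and chaperones, 7 of 17 were higher and 2 lower, with P4ha2 at a log2 change of 0.60, Plod1, a lysyl hydroxylase, at 0.30 and P4ha3 at 0.26. Adamts14 (0.94) and Tll1 (0.59), proteases of procollagen ends, were higher and Pcolce (-0.26), an enhancer of C-propeptide removal, lower. Itga11 (0.48) and Ddr1 (0.34) were higher and Mrc2 (-0.31) lower among receptors. Lama5 (0.77) and Lamc1 (0.36) were higher and Lama1 (-0.49) lower among type IV partners. Timp1 (0.32) and Mmp13 (0.72) were higher and Mmp14 (-0.31) lower among genes of collagen degradation. All 5 epithelial markers tested were again called higher, with Cdh1 at 1.84 and Krt8 at 2.20. Of the pluripotency markers, Nanog was called higher (2.24) and Pou5f1 (-0.32) and Sox2 (-0.30) lower. Cartilage markers moved with these genes: 6 of 9 listed were called higher and 1 lower, with sums of 31.0 to 32.4 CPM in controls and 40.4 to 41.5 CPM with the inhibitor. Summed fibroblast markers were 11800 to 11880 CPM in controls and 13240 to 13640 CPM with the inhibitor, with 4 of 11 called higher and 4 lower. The part of these lists in the result was not tested.

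The effect of the inhibitor at day 4 (full) minus its effect at day 2 was called for 17 of 40 members, 16 higher and 1 lower, where 9.18% of all genes were called (5.61% higher, 3.57% lower). Type IV gave 5 of the 6 genes of its class. For Col4a1 the effect went from -0.25 at day 2 to -0.02 at day 4, a difference of 0.22 (SE 0.043, edgeR adjusted p = 3.35e-04). For Col4a6 it went from -0.08 to 0.76, a difference of 0.84 (SE 0.087, edgeR adjusted p = 2.44e-09). Col4a5 differed by 0.42 (SE 0.049). The largest difference among fibrillar genes was that of Col2a1, lower at day 2 (-0.26) and higher at day 4 (0.57), at 0.82 (SE 0.09, edgeR adjusted p = 6.68e-09). Col15a1, Col18a1, Col28a1, Col10a1, Col14a1, Col16a1, Col6a1 and Col6a2 also differed upward, and Col3a1 downward (-0.29, SE 0.045).
The remaining 4 calls, Col4a2, Col1a2, Col9a3 and Col4a3, were each lost without 6 or 7 of the 8 libraries taken singly (edgeR adjusted p from 0.0515 to 0.279), and Col28a1 and Col6a1 without one each, day 2 control replicate 2 (edgeR adjusted p = 0.0725) and full replicate 1 (0.0524).

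The day 4 groups also separate the days on which the inhibitor was present. With the early window, 8 of 40 members were called, 7 higher and 1 lower, beside 5.63% of all genes (3.19% higher, 2.45% lower), and with the mid window 23 were called, 22 higher and 1 lower, beside 27.4% (14.0% higher, 13.5% lower). In the early window 3 calls held without each library, those of Col15a1, Col10a1 and Col27a1; the count was 4 and 3 without control replicates 1 and 2 and 5 without either early library. In the mid window 12 calls held, and the count was 15 without control replicate 2. Early, mid and full were all set against the same 2 control libraries.

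The genes fell into different orders over the 3 windows. Col28a1 stood at 8.44 and 7.70 CPM in the early, 18.2 and 17.4 CPM in the mid and 23.8 and 21.9 CPM in the full group, beside 7.74 and 7.39 CPM in controls. The early libraries lay close to the controls (log2 0.09, SE 0.097, not called) and the mid libraries above them (1.23, SE 0.09). Col9a2 stood at 1.78 and 1.72 CPM early and 4.76 and 4.89 CPM mid, the same order as Col28a1. Col18a1 stood at 72.8 and 74.8 CPM early, 75.2 and 77.2 CPM mid and 130 and 125 CPM full. Here the full effect exceeded the sum of the 2 windows on the log2 scale by 0.59 (SE 0.055, edgeR adjusted p = 2.14e-10). Col4a6 at 25.6 and 24.6, 31.5 and 33.1 and 43.4 and 45.7 CPM and Col4a5 at 312 and 293, 359 and 355 and 402 and 414 CPM also exceeded the sum, by 0.53 (SE 0.081) and 0.32 (SE 0.048). Unlike Col18a1, both had early means below the controls, at 25.1 against 26.3 CPM and 302.5 against 330.9 CPM. Col4a5 was the 1 member called lower with the early window (-0.13), a call that did not hold without each library. Col15a1 stood at 168 and 168, 218 and 216 and 238 and 228 CPM, and its full effect fell short of the sum of the windows by 0.38 on the log2 scale (estimate -0.38, SE 0.047, edgeR adjusted p = 1.67e-07). Col10a1, the hypertrophic cartilage chain, stood at 21.0 and 22.3, 19.7 and 16.8 and 20.6 and 20.6 CPM against 14.3 and 14.2 CPM in controls, so that all 6 treated libraries lay above both controls. Col27a1, a fibrillar chain of cartilage and bone, had log2 changes of 0.37, 0.40 and 0.28 in the same order. Their differences from the sum of the windows were -0.43 (SE 0.10) and -0.50 (SE 0.1), and that of Col10a1 was not called without mid replicate 1 (edgeR adjusted p = 0.0827).

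In all, the full effect differed from the sum of both windows in 9 of 40 members, 6 more and 3 less, beside 10.1% of all genes (5.85% more, 4.2% less). The others were Col6a1, Col8a1 and Col12a1, each of which exceeded the sum, by 0.21, 0.30 and 0.19. For Col8a1 and Col12a1 both shorter windows had means below the control. Mean CPM of Col8a1 was 100.4 in controls, 94.3 early, 95.5 mid and 110.7 full. That of Col12a1 was 682.5, 650.0, 634.5 and 690.8 in the same order. Col12a1 was called lower with the mid window (-0.11) and not called with the full one.

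**Figure D5:**
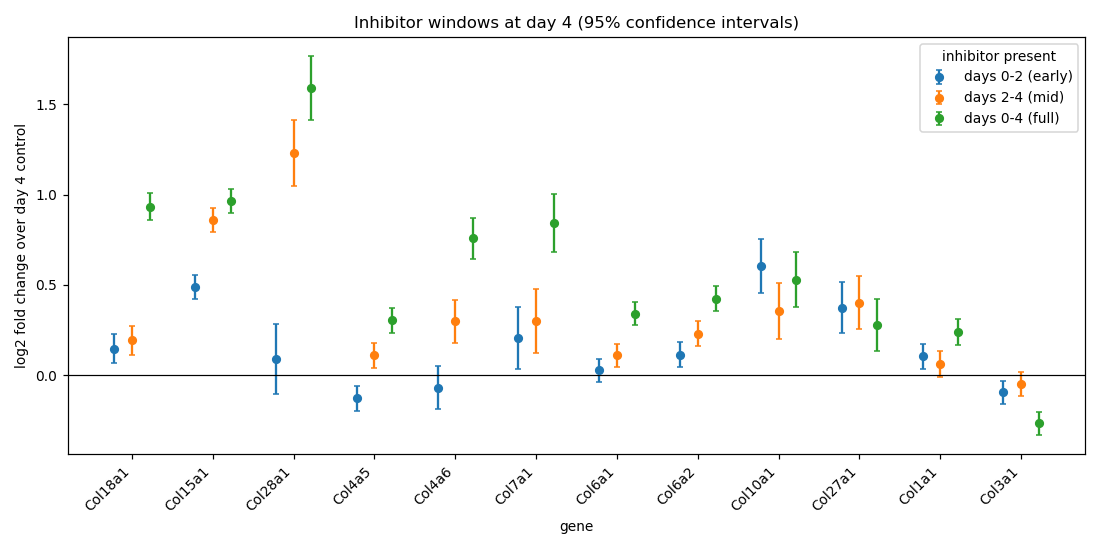
Log2 fold change over the day 4 control of 12 members, for SGC0946 on days 0-2, days 2-4 and days 0-4; points are edgeR estimates, bars 95% confidence intervals, and all share the same 2 control libraries. For Col18a1, Col4a6 and Col7a1 the full treatment stands apart from both shorter ones, and for Col15a1 the days 2-4 treatment is near the full one. For Col28a1 the days 2-4 treatment lies between the days 0-2 and the full one. For Col3a1 the full treatment is lowest, at -0.27.

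In the sort experiment the cells had been separated by surface CDH1 before the inhibitor was added. In CDH1- cells 16 of 38 members were called with the inhibitor, 8 higher and 8 lower, beside 18.7% of all genes (7.82% higher, 10.8% lower), and in CDH1+ cells 14 of 38, 8 higher and 6 lower, beside 18.8% (8.33% higher, 10.5% lower). Col15a1 rose in both, from 34.9 and 35.0 to 59.4 and 57.7 CPM in CDH1- cells and from 25.3 and 26.0 to 47.5 and 47.2 CPM in CDH1+ cells. Its log2 changes were 0.74 (SE 0.047, edgeR adjusted p = 3.59e-27) and 0.88 (SE 0.049, edgeR adjusted p = 6.95e-31). Col18a1 rose in both (0.41 and 0.31), as did Col11a1, Col6a1, Col6a2 and Col27a1. Col4a1, Col4a2, Col8a1, Col5a2 and Col1a2 fell in both. Col8a1 stood at 359 and 361 and 319 and 310 CPM in CDH1- cells and at 422 and 423 and 356 and 353 CPM in CDH1+ cells, with no overlap of control and inhibitor libraries in either. Col7a1 and Col6a6 were called higher and Col2a1, Col3a1 and Col12a1 lower in CDH1- cells, and Col25a1 and Col4a5 higher and Col10a1 lower in CDH1+ cells.

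No member's inhibitor effect was called as different between the populations by edgeR, beside 0.186% of all genes (0.0501% higher, 0.136% lower in CDH1+ cells), and 4 of 38 had an unadjusted p under 0.05. limma, DESeq2 and each other alternative called 0 as well. Without each library in turn, 9 calls held in CDH1- cells and 9 in CDH1+ cells, and the CDH1+ count was 9 without control replicate 1. Calls lost without 1 or more libraries were those of Col1a2, Col2a1, Col6a1, Col6a2, Col6a6, Col12a1 and Col27a1 in CDH1- cells (edgeR adjusted p from 0.0771 to 0.643) and of Col1a2, Col4a5, Col10a1, Col25a1 and Col27a1 in CDH1+ cells (from 0.054 to 0.26).

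Between CDH1+ and CDH1- controls 11 of 38 members were called, 7 higher and 4 lower in CDH1+ cells, beside 26.6% of all genes (12.8% higher, 13.8% lower). Col8a1 was higher by 0.23 (SE 0.026) and Col10a1, at 14.1 and 14.6 CPM in CDH1- and 18.5 and 17.9 CPM in CDH1+ cells, by 0.34 (SE 0.074). Col15a1 was lower in CDH1+ cells, at -0.45 (SE 0.053, edgeR adjusted p = 9.22e-12). Col18a1 and Col5a2 were also higher with calls that held without each library, and the remaining calls, Col17a1, Col4a1, Col4a5, Col2a1, Col3a1 and Col6a1, each rested on at least one library. For Col17a1, the hemidesmosome collagen of epithelia, at 0.744 and 0.263 and 1.01 and 1.48 CPM, the call went without CDH1- replicate 2 (edgeR adjusted p = 0.164) or CDH1+ replicate 2 (0.0809). For Col2a1 it went without CDH1- replicate 2 (0.433) or CDH1+ replicate 1 (0.126). For Col3a1 and Col6a1 it went without CDH1- replicate 2 (0.0828 and 0.174), for Col4a1 without CDH1- replicate 1 (0.162), and for Col4a5 without CDH1- replicate 1 (0.0535) or CDH1+ replicate 2 (0.091). All 5 macrophage markers were higher in CDH1+ controls, at 59.1 to 60.4 CPM in sum against 9.81 to 10.0 CPM in CDH1- controls, and summed epithelial markers, with Cdh1 among them, were 138 to 140 against 46.4 to 48.9 CPM. Their part in the result was not tested.

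The lentivirus experiment gave a separate set of MEFs and of day 2 cells. With the empty virus, 32 of 41 members were called at day 2 against MEFs, 10 higher and 22 lower, beside 66.0% of all genes (33.4% higher, 32.7% lower). Of the 40 members tested in both experiments, 30 changed with the same sign in both at day 2, and of 27 called in both 21 had the same sign, where the shares over all genes were 68.7% and 79.5%. Col1a1 stood at 7270 and 7521 CPM in empty-virus MEFs and 2451 and 2428 CPM at day 2, Col3a1 at 8363 and 8744 and 2298 and 2278 CPM and Col12a1 at 3119 and 3178 and 1210 and 1206 CPM. All 3 fell again, Col1a1 by 1.60, Col3a1 by 1.90 and Col12a1 by 1.38 on the log2 scale. Col24a1, Col8a2, Col10a1, Col14a1, Col6a1, Col6a2, Col18a1, Col27a1, Col5a1, Col1a2, Col7a1, Col16a1, Col5a3, Col11a2, Col9a1, Col9a2, Col23a1, Col6a6 and Col13a1 were the remaining members called lower.

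Of the members called higher with the empty virus, Col15a1 and Col20a1 were also called higher at day 2 of the timecourse. Col28a1 and Col4a6 were called higher with the empty virus only. Of these, only Col15a1 kept its empty-virus call under every setting run. The 6 members Col2a1, Col11a1, Col19a1, Col8a1, Col4a2 and Col4a5 were called in opposite directions at day 2 in the 2 experiments. Col2a1 was at 18.8 and 17.2 CPM in empty-virus MEFs and 38.0 and 36.8 CPM at day 2, a rise of 1.06 (SE 0.081), whereas in the timecourse it fell from 111 and 109 to 13.8 and 14.4 CPM. Col19a1, a FACIT, was at 0.641 and 1.02 CPM in empty-virus MEFs and 1.96 and 2.12 CPM at day 2, and in the timecourse at 0.659 and 1.26 and 0.124 and 0.139 CPM. Col11a1 was at 334 and 337 and 498 and 500 CPM, a rise of 0.57 (SE 0.074). Col8a1 at 452 and 441 and 534 and 522 CPM, and Col4a2 at 624 and 625 and 749 and 718 CPM, rose by 0.24 and 0.23, calls that limma on log2(TPM + 1) did not make (adjusted p = 0.657 and 0.86), and Col4a2 was not called without day 2 empty-virus control replicate 1 (edgeR adjusted p = 0.0661). In a joint fit of both experiments the change differed for 27 of 40 members, 20 more positive and 7 more negative with the virus, beside 57.6% of all genes. The differences were 4.02 (SE 0.093) for Col2a1, 2.44 (SE 0.062) for Col11a1, 4.11 (SE 0.55) for Col19a1, 1.74 for Col8a1, 1.496 for Col4a2 and 0.79 for Col4a5. Virus, experiment and library type all differ between these sets and cannot be told apart.

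The inhibitor called 9 of 41 members at day 2 with the empty virus, 4 higher and 5 lower, beside 6.73% of all genes (3.22% higher, 3.52% lower), and 5 of 41 with the Cdh1 virus, 2 higher and 3 lower, beside 5.05% (2.82% higher, 2.23% lower). Col24a1 was higher in both, at 4.24 and 3.74 and 5.71 and 5.22 CPM with the empty and 3.16 and 3.54 and 5.19 and 5.49 CPM with the Cdh1 virus, the direction it had in the timecourse. Col8a1 was higher in both, at 534 and 522 and 740 and 740 CPM with the empty and 580 and 578 and 660 and 719 CPM with the Cdh1 virus. Col2a1 was lower in both (-0.31 and -0.33). With the empty virus Col7a1 and Col4a6 were also called higher and Col3a1 and Col15a1 lower. Every inhibitor call with the Cdh1 virus, those of Col24a1, Col8a1 and Col2a1 included, was lost without some single library. Without single libraries the count with the empty virus fell to 2 (without control replicate 1 or inhibitor replicate 1) or 3 (without control replicate 2), and that with the Cdh1 virus to 1 (without control replicate 1 or 2) or 3 (without inhibitor replicate 2), and with the empty virus only Col8a1 kept its call under every setting run.

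Between the timecourse and the empty virus, 21 of 40 members had the same sign of the inhibitor's effect, beside 61.0% of all genes, and of 6 called in both 5 had the same sign, beside 92.2%. Col15a1 was the member called in opposite directions. With the empty virus it stood at 12.5 and 12.2 CPM in controls and 7.05 and 9.14 CPM with the inhibitor, a log2 change of -0.59 (SE 0.13), whose call went without control replicate 1 (edgeR adjusted p = 0.0771) or inhibitor replicate 1 (0.173). In the timecourse the same 2 days of inhibitor gave 0.51. The difference between the effects was -1.09 (SE 0.12, edgeR adjusted p = 1.33e-07) in the joint fit, where 11 of 40 members differed, 3 more positive and 8 more negative with the virus, beside 4.29% of all genes. Col8a1 (0.42) and Col18a1 (-0.51) differed with calls that also held without each library. The count was 6 or 7 without day 2 control replicate 1 (6) or 2 (7), day 2 inhibitor replicate 1 or 2 (7 each), empty-virus control replicate 1 (7) or empty-virus inhibitor replicate 1 (6).

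The Cdh1 virus itself called few members. In MEFs 1 of 41 was called, Col18a1, at 65.2 and 63.8 CPM with the empty and 78.5 and 84.4 CPM with the Cdh1 virus (0.34, SE 0.072), beside 1.14% of all genes (0.612% higher, 0.525% lower). For Cdh1-virus replicate 2 the labels disagree, 1 field naming day 2 reprogramming cells and the title uninduced MEFs, and it was kept by its title. The Col18a1 call went without empty-virus replicate 1 (edgeR adjusted p = 0.113) or 2 (0.218) or Cdh1-virus replicate 2 (0.25). In day 2 controls edgeR called 0 of 41 between the viruses (DESeq2 and limma also 0, and edgeR 1 with no low-count filter), beside 0.897% of all genes (0.146% higher, 0.751% lower), with 10 at an unadjusted p under 0.05. The inhibitor's effect did not differ in a called way between the viruses for any member (0 by edgeR, DESeq2 and limma, beside 0.0% of all genes, with 6 at an unadjusted p under 0.05). Summed macrophage markers were 1210 to 1321 CPM in empty-virus MEFs, 712 to 829 CPM in Cdh1-virus MEFs and 203 to 218 CPM in empty-virus day 2 controls, and their part in these results was not tested.

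Against empty-virus MEFs, ESCs differed in 37 of 41 members, 5 higher and 32 lower, beside 88.7% of all genes (44.5% higher, 44.1% lower). The ESCs carry no genotype label and were kept in another medium than MEFs, and neither line nor culture can be told apart from cell type. Col3a1 stood at 8363 and 8744 CPM in MEFs and 24.9 and 29.3 CPM in ESCs, Col12a1 at 3119 and 3178 and 12.3 and 14.2 CPM and Col1a1 at 7270 and 7521 and 39.9 and 42.1 CPM. These are 315-fold, 238-fold and 180-fold lower levels. Col14a1 went from 40.1 and 42.6 CPM in MEFs to 0.1345 and 0.0887 CPM in ESCs, a log2 change of -8.495. Col4a1 fell less, from 752 and 752 to 78.0 and 77.1 CPM, 9.70-fold, and Col2a1 from 18.8 and 17.2 to 9.95 and 9.73 CPM, 1.83-fold. Summed TPM was 163-fold lower for fibrillar members, 19.6-fold for type IV and 14.7-fold for the other classes.

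Col18a1 went the other way and was the leading collagen of ESCs. It stood at 335 and 328 CPM in ESCs and 65.2 and 63.8 CPM in MEFs, a log2 change of 2.36 (SE 0.072, edgeR adjusted p = 7.33e-20), and supplied 46.1% of all collagen TPM, against 0.197% in empty-virus MEFs. By TPM it ranked first of the 41 in ESCs and no higher than rank 14 in any other group. Col1a2, with 10.8% of collagen TPM, and Col4a1, with 8.20%, came next. Col9a3 stood at 4.50 and 5.97 CPM in ESCs and 0.732 and 0.927 CPM in MEFs, Col9a2 at 3.83 and 3.04 and 1.60 and 1.46 CPM, Col17a1 at 1.14 and 1.27 and 0.458 and 0.574 CPM and Col13a1, a transmembrane chain, at 1.04 and 1.12 and 0.229 and 0.0883 CPM, and all 4 were called higher. Col22a1, Col20a1, Col25a1 and Col6a4 were not called. Of the hydroxylases and chaperones, 16 of 17 were lower and 1 higher, all 9 collagen receptors tested were lower, and all 11 fibroblast markers were lower.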

How the data were processed

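Each library had 1 deposited table that lists an expected count and a TPM value for each of 20325 genes. Trimmomatic, Bowtie, RSEM 1.2.4 and the builds mm9 and hg18 are named in the submitters' processing notes, and the roles of the builds are not given in the sources used here. The expected counts were deposited without normalization. The deposited TPM values had been scaled by RSEM, per the file headers, for effective gene length within each library. In the timecourse and sort, effective length was shorter than gene length, and in the other libraries it was not, so TPM was compared within experiments. Human RNA was added to the timecourse and sort samples, per the labels, and no spike-in scaling was used here, so a change is relative to the rest of a library.

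Expected counts, 40.9% of them fractional, were rounded and tested with edgeR 4.0.16 in R 4.3.3 (quasi-likelihood, robust, TMM, filterByExpr with a minimum count of 10 and a minimum total of 15), in 1 fit per experiment over all genes; the fits left 7, 4 and 7 residual degrees of freedom. Depth was between 32.9 and 50.9 M counts in the timecourse, 34.9 and 43.1 in the sort and 18.5 and 35.9 in the remaining libraries. A joint fit of timecourse and lentivirus libraries (14808 genes, residual degrees of freedom 13) was added after the results of both were seen. CPM used TMM library sizes, and "called" means a Benjamini-Hochberg adjusted p under 0.05. Alternatives were DESeq2 1.42.0, limma 3.58.1 on log2(TPM + 1) and log2(TPM + 0.1), other scalings, no low-count filter, a replicate block and leaving out each library. The method was tested on simulated data. Replicate libraries differed by more than counting noise, so none was a copy.

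All 41 members are accounted for by name. Values per library were given for most of the 4 most abundant members of a class and for partner chains. They were also given for most of the 3 largest called increases and decreases of a comparison. The latter were taken among members whose mean log2 CPM was 0 or more. Not every such member was given values in every comparison. Of the 3 members of each pathway list with the smallest p, those called were named. This was done for day 2 against MEFs and for the inhibitor at day 2 and at day 4 (full). The members, lists and tests were chosen with earlier results of these data known. Older symbols such as Emr1 stand as in the files. Genome coordinates are those of the RefSeq promoter table (GRCm38.p6), which held 33 of the 41 members, and no mm9 coordinate was used.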

Additional observations from a re-analysis of the deposited data

Results flagged for a closer look

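A test of the difference between 2 effects picked out the values below, all as edgeR log2 differences called at an adjusted p under 0.05 over all genes. No explanation of them was tested.

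The inhibitor's effect at day 4 (days 0 to 4) minus its effect at day 2 differed most for scarce genes, at 2.52 for Col4a3 and 1.33 for Col14a1. Col4a3 stayed at or under 0.836 CPM in the timecourse. As given above, the calls of Col4a3, Col4a2, Col1a2, Col9a3, Col28a1 and Col6a1 did not hold without every library. Further basement membrane differences were 0.84 for Col4a6, 0.42 for Col4a5, 0.22 for Col4a1 and 0.17 for Col4a2. Among fibrillar genes they were 0.82 for Col2a1, 0.15 for Col1a2 and -0.29 for Col3a1. In the other classes they were 1.21 for Col9a3, 1.05 for Col28a1, 0.67 for Col10a1, 0.45 for Col15a1, 0.44 for Col18a1, 0.37 for Col16a1, 0.31 for Col6a2 and 0.20 for Col6a1.

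The effect of the inhibitor on days 0 to 4 exceeded the sum of the effects of the shorter windows by 0.59 for Col18a1, 0.53 for Col4a6, 0.32 for Col4a5, 0.30 for Col8a1, 0.21 for Col6a1 and 0.19 for Col12a1. It was less than that sum for Col27a1 (-0.50), Col10a1 (-0.43) and Col15a1 (-0.38). For Col4a5, Col4a6, Col8a1 and Col12a1 the mean level in 1 or both shorter windows lay below the control mean.

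The change from MEFs to day 2 with the empty virus minus that in the timecourse was 4.11 for Col19a1, 4.02 for Col2a1, 2.44 for Col11a1, 1.74 for Col8a1, 1.496 for Col4a2 and 0.79 for Col4a5, the members called in opposite directions in the 2 experiments. For the inhibitor's effect at day 2 the same difference was -1.09 for Col15a1, called higher with the inhibitor in the timecourse and lower with the empty virus.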

How the results depend on the processing

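No called member reversed under any alternative run. Over single members, 10695 values kept their side of the threshold, 457 calls were lost and 112 were gained. With limma on log2(TPM + 0.1) the count of called members was 0 for the Cdh1 virus in MEFs (1 in the main analysis), 1 for the inhibitor with the Cdh1 virus (5), 4 with the empty virus (9), 2 for the early window (8) and 15 for the mid window (23). With log2(TPM + 1) these were 0, 2, 7, 3 and 15, and CDH1+ against CDH1- controls gave 7 (11). With log2(TPM + 1) and no filter they were 0, 2, 5, 2 and 14, with 6 for CDH1+ against CDH1- controls and 7 for the inhibitor in CDH1- cells (16). Without the low-count filter the Cdh1 virus gave 2 in MEFs and 1 in day 2 controls (0). TPM was not used for the joint fit.

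Leaving out each library in turn gave 9 to 12 for the inhibitor in CDH1+ cells (14), 0 to 1 for the Cdh1 virus in MEFs, 1 to 4 and 2 to 9 for the inhibitor with the Cdh1 and the empty virus, 3 to 5 for the early and 15 to 18 for the mid window, and 6 to 13 for the difference of the inhibitor's effect between experiments (11). Fits that leave a group with 1 library take its spread from the other groups.

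The replicate numbers do not pair the libraries. Correlations of same-numbered deviations ran from -0.0762 to 0.0602 in the timecourse, from -0.049 to 0.0632 in the sort and from -0.0936 to 0.109 in the other set. With the replicate number as a block, counts were 19 for the inhibitor at day 2 (20), 15 in CDH1- cells (16), 12 in CDH1+ cells (14), 31 for day 2 against MEFs with the empty virus (32), 10 for the inhibitor with the empty virus (9) and 38 for ESCs (37). Chains under about 1 CPM rest on few reads.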
